A study of Mus musculus with 3 samples.

Results

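Fto, Rpgrip1l, Irx3 and Irx5 lie next to each other on mouse chromosome 8, in the region that corresponds to the human obesity locus at FTO, and were taken by symbol from a table of 39179 genes, in which all 4 are listed. The table comes from an RNA immunoprecipitation, in which an antibody pulls a protein out of a tissue lysate together with attached RNA. All libraries came from white fat of 16-week-old mice of the C57BL/6 background that carried a Flag-FTO transgene and had been fasted overnight. In the Flag-IP group (2 libraries, Flag-IP 1 and Flag-IP 2) the anti-Flag M2 antibody recognised the tagged FTO protein, and in the IgG-IP group (1 library) a nonspecific IgG measured the RNA that comes down without it. The promoter that drives the transgene, the species of its FTO sequence and the number of animals are not stated in the labels. The p-values therefore measure only the spread between these libraries, pooled over genes, which may be technical. Since every mouse carried the transgene, the Fto count does not check the labels.

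Fto encodes a demethylase of RNA, an oxygenase that takes the methyl mark off adenosine. Rpgrip1l encodes a protein of the transition zone, the gate at the base of the primary cilium, and starts beside Fto on the opposite strand. Irx3 and Irx5 encode homeodomain transcription factors of the Iroquois family. Human obesity-associated variants lie in introns of FTO, and work in mice and human cells has connected that region to the expression of IRX3 and IRX5, which act in fat-cell precursors and the brain, and of RPGRIP1L.

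In the GENCODE M21 annotation of GRCm38, Rpgrip1l (chr8:91217030-91313262, minus strand) and Fto (chr8:91313525-91668439, plus strand) are head to head. The stretch between their starts is shown because it ties both counted genes to a single short region from which they are transcribed in opposite directions. It is given from RefSeq promoter sequence (GRCm38.p6), 5′ to 3′ on the plus strand, for the 250 bases before the Fto start, chr8:91313275-91313524. Capitals mark matches to TTCCCAG, which is part of a longer known ZNF143 recognition sequence, searched on both strands; the motif was chosen after the sequence was read.
Fto upstream: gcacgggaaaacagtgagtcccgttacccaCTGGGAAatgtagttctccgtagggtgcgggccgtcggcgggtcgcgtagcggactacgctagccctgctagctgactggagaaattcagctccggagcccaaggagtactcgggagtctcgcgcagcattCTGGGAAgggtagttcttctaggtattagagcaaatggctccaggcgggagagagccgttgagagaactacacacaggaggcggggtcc

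The stretch holds 2 matches, both on the minus strand and not overlapping each other. They begin 220 and 89 bases before the Fto start. The Rpgrip1l window overlaps this stretch and holds the same 2 matches, while the Irx3 window holds 1. Of 32851 RefSeq promoters, 9.10% hold at least 1 match in the same 250 bases and 0.451% hold 2 or more. Promoter entries were found for 3 of the 4 genes, and a match is a description of the letters only.

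The 4 genes divided into a pair that was well counted in every library, Fto and Rpgrip1l, and a pair close to 0, Irx3 and Irx5. Neither Fto nor Rpgrip1l differed between Flag-IP and IgG-IP beyond the error. Across all 17587 genes tested, 981 (5.58%) rose and 1015 (5.77%) fell in Flag-IP, 11.3% in either direction; the test was edgeR's quasi-likelihood test, and the threshold an adjusted p of 0.05 (Benjamini-Hochberg). Of the 2 locus genes that had enough counts to be tested, 0 passed, 0 had an unadjusted p under 0.05, and DESeq2 also called 0, giving no adjusted p for Rpgrip1l.

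Fto had 230 counts in Flag-IP 1 and 291 in Flag-IP 2, against 300 in the IgG-IP library. Exact Poisson 95% intervals, which cover counting error only, ran from 201 to 262, from 259 to 326 and from 267 to 336 counts. Scaled by TMM-adjusted library size to normalized counts, Fto was at 248 in Flag-IP 1 and 288 in Flag-IP 2 (mean 268 ± 28.6, SD, n = 2), against 283 in the IgG-IP library. In this scaling the IgG-IP value lay between the Flag-IP values, so the groups overlapped. The log2 fold change, Flag-IP over IgG-IP, was -0.08 ± 0.22 (SE; edgeR adjusted p = 0.875). Its 95% interval, -0.51 to 0.36 on the log2 scale, corresponds to folds of 0.700 to 1.29. With scaling to total counts instead, the log2 fold change was -0.59 (edgeR adjusted p = 0.0846).

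Rpgrip1l had 51 counts in Flag-IP 1 and 64 in Flag-IP 2, against 82 in the IgG-IP library. The normalized counts were 54.9 and 63.4 in the Flag-IP libraries (mean 59.2 ± 5.98, SD, n = 2), against 77.2 in the IgG-IP library. Both Flag-IP libraries were below the IgG-IP library, but their Poisson intervals reached 67.1 and 81.7 counts, and that of the IgG-IP library reached down to 65.2. The log2 fold change was -0.38 ± 0.33 (SE; edgeR adjusted p = 0.504), with a 95% interval of -1.02 to 0.26. That interval admits folds of 0.492 to 1.20. The Rpgrip1l log2 fold change minus that of Fto was -0.31 ± 0.40 (SE), with an interval of -1.08 to 0.47 that includes 0, so no difference between these head-to-head neighbours was detectable.

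Irx3 (chr8:91798525-91802067, minus strand) had 5 counts in Flag-IP 1 and 2 in Flag-IP 2, against 0 in the IgG-IP library. Irx5 (chr8:92357625-92376286, plus strand) had 0 counts in Flag-IP 1 and 4 in Flag-IP 2, against 0 in the IgG-IP library. Irx3 was therefore seen in both Flag-IP libraries and Irx5 in 1 of them. In normalized counts the Flag-IP mean was 3.68 ± 2.41 for Irx3 and 1.98 ± 2.80 for Irx5 (SD, n = 2 each). The exact Poisson 95% interval of a count of 0 reaches 3.69 counts, and that of each Flag-IP count reached below it, so no fold is given. Both genes were below the filter on low counts. In an edgeR fit without that filter the adjusted p was 0.568 for Irx3 and 0.727 for Irx5, so no difference was detectable at this depth.

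A count of 0 in the IgG-IP library was common among genes counted as rarely as these. Of 231 protein-coding genes with 7 Flag-IP counts in all, as Irx3 had, 57 (24.7%) had 0 IgG-IP counts, and the median was 3. Of 691 with 4 Flag-IP counts in all, as Irx5 had, 247 (35.7%) had 0 IgG-IP counts, and the median was 2. The antisense transcript of Irx3, listed as D230002A01Rik, overlaps it and had 8 and 7 counts in Flag-IP 1 and Flag-IP 2, against 8 in the IgG-IP library. The antisense gene thus had more counts than Irx3 itself. Whether the counting used strand is not known here, so reads of the pair may not be told apart. Fto overlaps the antisense gene Gm3235, which had 6 and 4 counts in Flag-IP 1 and Flag-IP 2, against 6 in IgG-IP, 1.92% of the Fto counts in Flag-IP. No other gene of the table overlaps Rpgrip1l or Irx5.

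**Figure D1:**
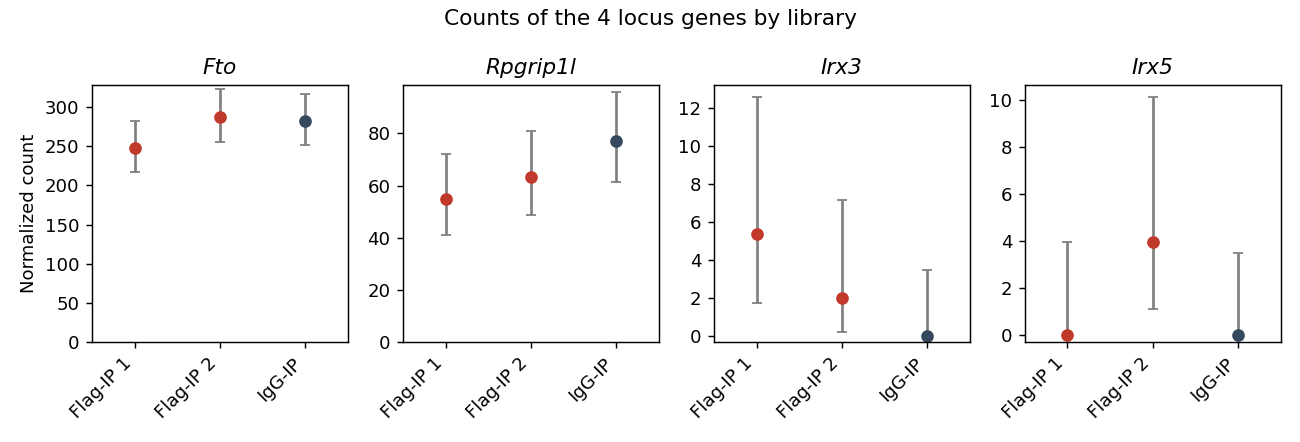
Normalized counts (y axis, linear, a different scale in each panel) of Fto, Rpgrip1l, Irx3 and Irx5 in Flag-IP 1, Flag-IP 2 and the IgG-IP library, with exact Poisson 95% intervals scaled in the same way. For Fto the IgG-IP value of 283 lies between 248 and 288, for Rpgrip1l it lies above both Flag-IP values, and for Irx3 and Irx5 it is 0.

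Of Fto and Rpgrip1l, the gene with the higher level, Fto, is the longer over the whole gene, introns included, but the shorter in exon. Fto spans 355 kb with 13031 bases of annotated exon, and Rpgrip1l spans 96.2 kb with 14688 bases. Per Mb of span, the Fto level was 7.86 and 9.14 CPM (counts per 1000000 of effective library size) in Flag-IP 1 and Flag-IP 2, against 8.96 CPM in the IgG-IP library. The Rpgrip1l level per Mb of span was 6.43 and 7.41 CPM in the Flag-IP libraries, against 9.04 CPM in the IgG-IP library. Per unit of span the genes were thus close to each other in every library. Per kb of exon the mean level over the 3 libraries was 0.236 CPM for Fto and 0.0500 CPM for Rpgrip1l, which stood far apart.

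Other protein-coding genes showed the same relation to span. Genes are not independent replicates, but as a description, Spearman's rho of level with span over 14920 tested protein-coding genes was 0.80 in Flag-IP 1, 0.82 in Flag-IP 2 and 0.87 in the IgG-IP library. With exon length in place of span it was 0.48, 0.48 and 0.47 in the same libraries. The median level per Mb of span was 9.52 and 9.63 CPM in the Flag-IP libraries, against 9.47 CPM in the IgG-IP library. Fto was above 35.3%, 45.5% and 44.7% of these genes in Flag-IP 1, Flag-IP 2 and the IgG-IP library, on level per Mb of span. For Rpgrip1l those shares were 22.6%, 29.2% and 45.5%. Per kb of exon, over all 3 libraries, Fto was above 87.1% of genes and Rpgrip1l above 33.3%. Of the 200 coding genes nearest to Fto in span, the median was 246 normalized counts in Flag-IP and 317 in IgG-IP. Fto was above 60.5% of them in Flag-IP, while in IgG-IP its 283 normalized counts were below their median. The source of the reads along each gene was not tested, since counts per position were not used here.

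**Figure D2:**
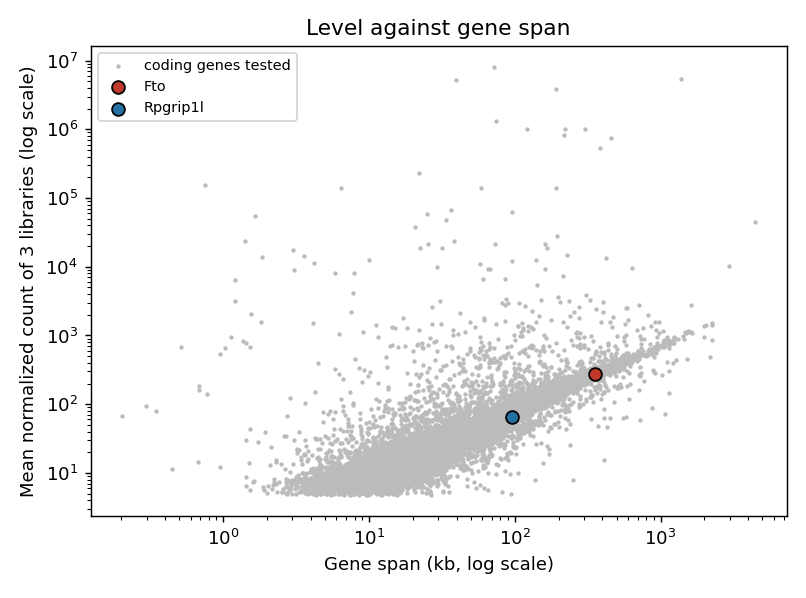
Mean normalized count over the 3 libraries (y axis, log scale) against gene span in kb (x axis, log scale), with grey points for 14920 tested protein-coding genes, red for Fto and blue for Rpgrip1l. Most genes lie along a rising band, and Fto and Rpgrip1l lie in it.

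GC content and span both moved with the comparison, and the locus genes differ widely in them. The GC content of the longest transcript was 48.1% for Fto, 41.6% for Rpgrip1l, 62.5% for Irx3 and 65.4% for Irx5, against a median of 48.8% over the tested protein-coding genes. Irx3 and Irx5 were above 99.0% and 99.8% of those genes. The 200 coding genes nearest to Rpgrip1l in GC had a median log2 fold change of -0.56, and 130 of them were below the -0.38 of Rpgrip1l. Those nearest to Fto in GC had a median of 0.09, and 81 were below the -0.08 of Fto. By span, the 200 genes nearest to Fto had a median of -0.30, with 9 called higher and 53 lower, and 133 were below Fto. By span, those nearest to Rpgrip1l had a median of -0.05, with 16 called higher and 18 lower, and 68 were below Rpgrip1l. Over all tested genes 5.58% were called higher and 5.77% lower. With the trend on GC taken off, the log2 fold change of Rpgrip1l was 0.15, and with the trend on span taken off that of Fto was 0.23 (edgeR adjusted p = 0.911 and 0.569). The part of GC and span in these values was not tested otherwise.

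FTO is known to act on N6-methyladenosine, which is often placed in the sequence GGACT. The longest transcripts held 2 such sites in Fto, 2 in Rpgrip1l, 3 in Irx3 and 0 in Irx5, searched on the transcribed strand only. Per kb that is 0.425, 0.285, 1.09 and 0 sites, against a median of 1.03 over tested protein-coding genes, of which 93.3% hold at least 1. A site in the letters does not show that it is methylated.

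**Figure D3:**
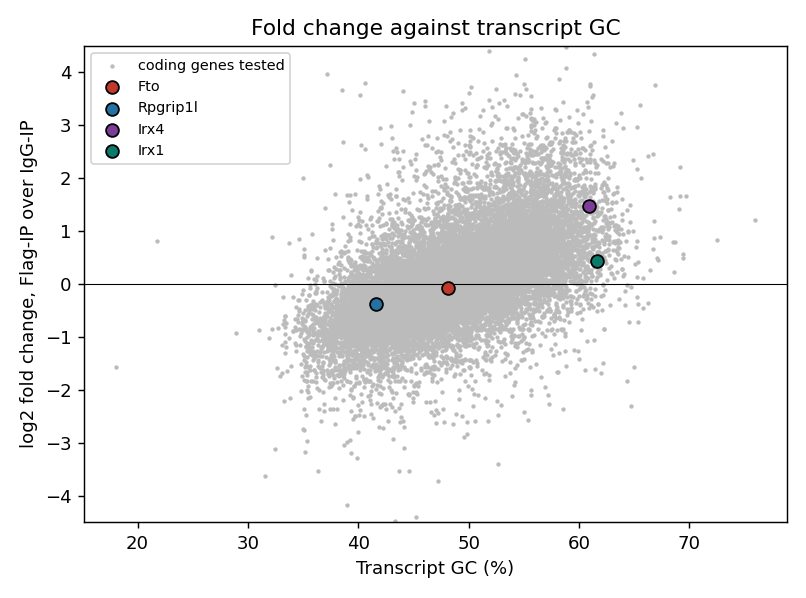
Log2 fold change, Flag-IP over IgG-IP (y axis), against GC of the longest transcript in percent (x axis), with grey points for tested protein-coding genes and coloured points for Fto, Rpgrip1l, Irx4 and Irx1. The grey cloud rises with GC, and 129 genes beyond ±4.5 are not drawn; Fto and Rpgrip1l lie within the cloud at their GC.

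Of 31 genes in the table within 1 Mb of a locus gene, the locus genes included, 19 were tested and 0 passed, with 1 at an unadjusted p under 0.05 and 0 called by DESeq2, which gave no adjusted p for 17. The share called over all genes was 11.3%. Their median log2 fold change was -0.33, against 0.03 over all tested genes, with 14 below 0 and 5 above. Over all tested genes 8564 were below 0 and 9023 above. The genes below 0 included Ces1b to Ces1h, neighbouring copies of 1 cluster, from -1.74 (Ces1b) to -0.21 (Ces1h), while Ces1a was at 0.58. The median therefore counts that cluster several times. Chd9, a chromatin remodeller gene before Rbl2, had 336 and 307 counts in Flag-IP 1 and Flag-IP 2, against 456 in the IgG-IP library (log2 fold change -0.37 ± 0.22, SE). Both Flag-IP libraries were lower there, but the test was not passed. Rbl2, a relative of the retinoblastoma gene, had 27 and 52 counts in the Flag-IP libraries against 46. Aktip, an AKT-interacting protein gene that overlaps Rbl2, had 6 and 28 against 25. Beyond the Iroquois genes, Mmp2, a matrix-degrading protease, had 29 and 34 counts in the Flag-IP libraries, against 34 in the IgG-IP library. The noncoding gene next to Irx5, listed as 4933436C20Rik, had 14 and 18 against 25. Ces1b, of a cluster of carboxylesterase copies that may share reads, had 0 and 12 against 22 and was the gene at an unadjusted p under 0.05.

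**Figure D4:**
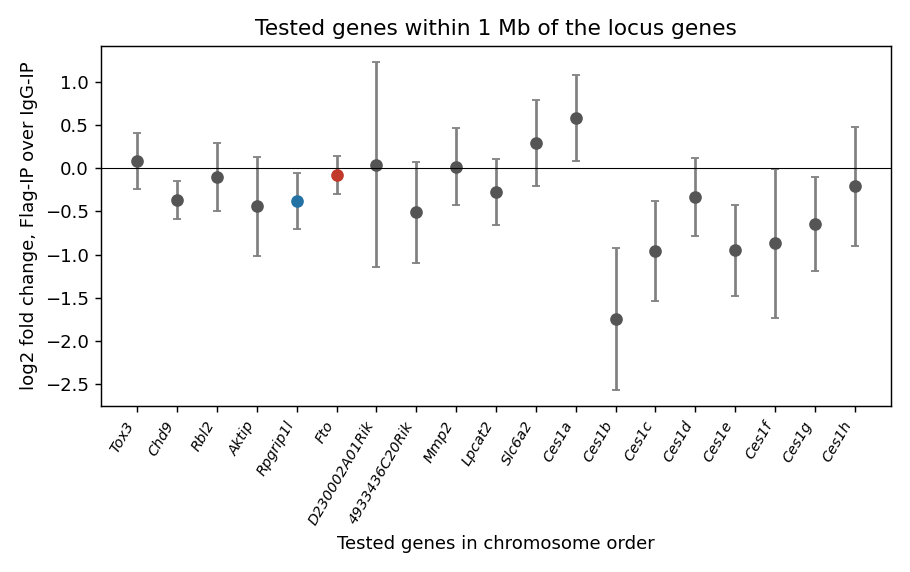
Log2 fold change, Flag-IP over IgG-IP (y axis), of the 19 tested genes within 1 Mb of a locus gene, in chromosome order, with bars of 1 SE; red marks Fto and blue Rpgrip1l. Values run from -1.74 to 0.58, and none passed the edgeR test.

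A list of 15 genes along the same stretch of the chromosome, drawn wider than 1 Mb, had 12 tested members, of which 1 was higher and 1 lower, against 5.58% and 5.77% of all tested genes, with a median of -0.05. DESeq2 called 0 and gave no adjusted p for 11. Nod2, a receptor for bacterial wall fragments, had 32 and 62 counts in the Flag-IP libraries, against 21 in the IgG-IP library (log2 fold change 1.28 ± 0.45, SE). Cyld, a deubiquitinase, had 17 and 30 against 60 (-1.22 ± 0.42). The GC content was 54.4% for Nod2 and 43.5% for Cyld, and with the trend on GC taken off neither passed (edgeR adjusted p = 0.450 and 0.373). Tox3, a nuclear DNA-binding protein gene within 1 Mb, had 73 and 64 counts against 71 and did not pass.

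The Iroquois family has 6 genes in mice, in 2 clusters, and all were weakly counted. Their counts summed to 38 in Flag-IP 1 and 45 in Flag-IP 2, against 19 in the IgG-IP library. Both sums in Flag-IP were above the IgG-IP sum, also in normalized counts (40.9 and 44.6 against 17.9). Irx4 gave the largest part of both Flag-IP sums, 3 members had 0 IgG-IP counts, and the sums were not tested. Irx4 and Irx1, from the cluster on the other chromosome, were the only members tested. Of these, 0 of 2 passed, where 11.3% of all genes were called, and 0 had an unadjusted edgeR p under 0.05. DESeq2 gave neither an adjusted p. Irx4 had 19 and 17 counts in the Flag-IP libraries, against 7 in the IgG-IP library (log2 fold change 1.48 ± 0.79, SE). Irx4 met the filter on low counts through the Flag-IP libraries alone, so its value is not separate support for a rise. Irx1 had 8 and 12 against 8 (0.44 ± 1.02), and its sign turned with scaling to total counts and with either trend taken off. Irx2 had 4 and 6 against 4, and Irx6, beside Irx5, had 2 and 4 against 0. All members are GC-rich, from 56.8% to 65.4%. The 200 coding genes nearest to Irx4 in GC had a median log2 fold change of 1.07, with 43 called higher and 0 lower, and 130 of them were below Irx4. Those nearest to Irx1 had a median of 1.06, with 43 called higher and 2 lower, and 46 of them were below Irx1. Over all tested genes 5.58% were called higher and 5.77% lower.

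Fto belongs to the AlkB family of oxygenases, whose other members repair alkylated DNA or modify RNA and protein. Of 9 members 6 were tested and 0 passed in edgeR, where 11.3% of all genes were called. DESeq2 called 0 (no adjusted p for 5), and the median log2 fold change was -0.14. An unadjusted edgeR p under 0.05 was reached by 2 members, and by 4340 of all 17587 tested genes. Those 2 members went in opposite directions. Alkbh8, a modifier of transfer RNA, had 35 and 18 counts in the Flag-IP libraries, against 60 in the IgG-IP library (-1.03 ± 0.41, SE; edgeR adjusted p = 0.0770). Alkbh6, weakly counted, had 13 and 16 against 2 (2.91 ± 1.18, SE; edgeR adjusted p = 0.0919). Alkbh6 met the filter on low counts through the Flag-IP libraries alone, so its value is not separate support for a rise. Alkbh5, the other known eraser of N6-methyladenosine, had 4 and 22 counts against 22. Alkbh3 had 16 and 27 against 18, and Alkbh1 had 12 and 18 against 19. Both overlap other counted genes (Gm27027 and Slirp) that hold 151% and 76.7% as many Flag-IP counts, so their values are uncertain. Fto spans more than any other member and had the most counts.

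Rpgrip1l is a member of the list of transition zone genes, and its own value was the list median. Of the 22 genes 21 were tested. Of these 2 were higher, 2 were lower and 17 did not pass, where 11.3% of all genes were called, and the median log2 fold change was -0.38. DESeq2 called 1, Cep164, and gave no adjusted p for 17. Cep290, a scaffold of the transition zone, had 33 and 38 counts in Flag-IP 1 and Flag-IP 2, against 117 in the IgG-IP library (-1.59 ± 0.33, SE; edgeR adjusted p = 8.51e-05). Tmem67, a membrane protein of the Meckel-Gruber complex, had 33 and 40 against 103 (-1.36 ± 0.34). Both were lower in each Flag-IP library. Cep164, which belongs to the distal appendages and docks the cilium, had 1835 and 2236 counts against 1284 (0.79 ± 0.23). Its mean level over the libraries was 328 CPM per Mb of span, against quartiles of 7.98 and 12.2 CPM over tested protein-coding genes. The source of its reads along the gene was not tested. Mks1, of the Meckel-Gruber complex, had 12 and 11 counts against 0 (edgeR adjusted p = 0.0493), and no fold is given against a count of 0. It met the filter on low counts through the Flag-IP libraries alone, so its call is not separate support for a rise. Of all tested genes 176 had 0 IgG-IP counts. The GC content was 38.7% for Cep290, 47.9% for Tmem67, 54.6% for Mks1 and 57.7% for Cep164. With the trend on GC taken off, Tmem67 still passed, while Cep290, Mks1 and Cep164 did not.

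The primary cilium is needed for hedgehog signalling, and reduced Rpgrip1l has been connected with leptin receptor signalling in mice. Of 13 genes reported for these pathways 12 were tested, of which 1 rose, 1 fell and 10 did not pass, where 11.3% of all genes were called, and the median log2 fold change was 0.54. DESeq2 called 0 and gave no adjusted p for 9. Smo, the transducer of the hedgehog signal, had 221 and 267 counts in the Flag-IP libraries, against 128 in the IgG-IP library (1.06 ± 0.25, SE). Jak2, the kinase bound to the leptin receptor, had 23 and 37 against 77 (-1.23 ± 0.37). Gli3, a transcription factor of the pathway, had 173 and 175 against 249, and did not pass. Gli2, its relative, had 209 and 180 against 140, and Lepr itself had 52 and 76 against 106, and neither passed. The list has a median GC of 55.8%, and neither Smo nor Jak2 passed with the trend on GC taken off.

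In human fat-cell precursors, ARID5B has been described as the repressor that acts at the obesity locus on IRX3 and IRX5 and, through them, on genes of heat production. Of 12 genes listed for that circuit 9 were tested, of which 1 was higher, 1 was lower and 7 did not pass, where 11.3% of all genes were called, and the median log2 fold change was 0.02. DESeq2 called 0 and gave no adjusted p for 5. Arid5b had 148 and 199 counts in the Flag-IP libraries, against 190 in the IgG-IP library, and Cux1, a homeodomain factor described at the Fto and Rpgrip1l promoter, had 307 and 308 against 332. The groups overlapped for Arid5b and for Cux1 in normalized counts. Prdm16, a regulator of brown and beige fat, had 339 and 384 against 214 (0.89 ± 0.23, SE), and Ppargc1a, a coactivator of mitochondrial genes, had 49 and 70 against 118 (-0.86 ± 0.30). Neither passed with the trend on GC taken off. Ucp1, the uncoupling protein of heat production, had 4 and 4 counts against 2 and was not tested.

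**Figure D5:**
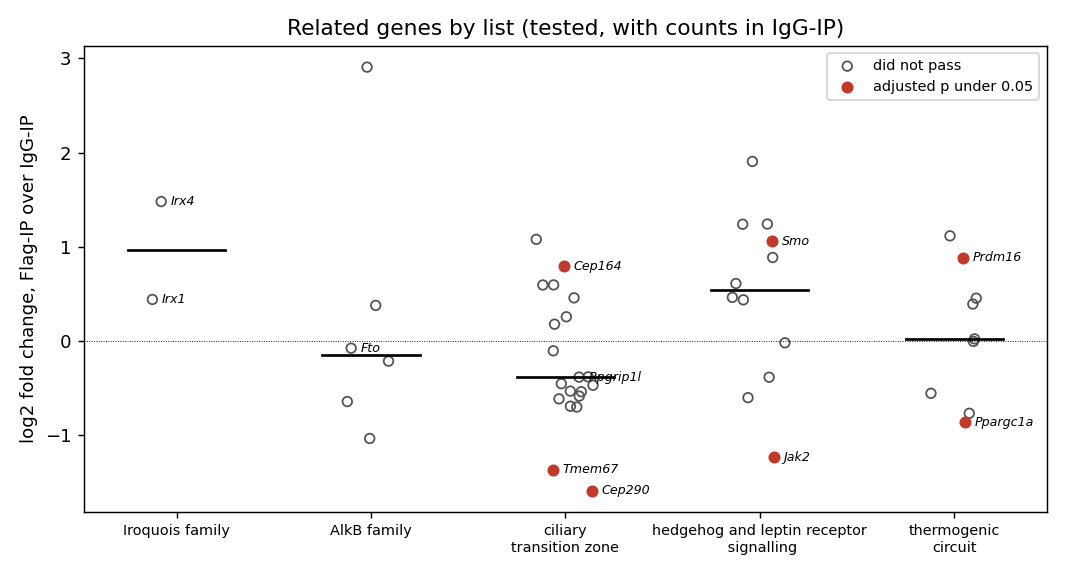
Log2 fold change, Flag-IP over IgG-IP (y axis), of the tested members of 5 lists with counts in the IgG-IP library, 1 point a gene; filled red points passed the edgeR test, open points did not, and lines mark the list median over all tested members. Each is a member of its list: Fto lies near the median of the AlkB family, and the value of Rpgrip1l is itself the median of the transition zone list.

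The genes most like Fto over the 3 libraries, by Euclidean distance in log2 CPM among 17586 other tested genes, were Efna5 (0.13; 224 and 281 counts in the Flag-IP libraries, against 325 in the IgG-IP library), Ccdc148 (0.14) and Pde7b (0.14). Those most like Rpgrip1l were Gm13251 (0.035; 50 and 65 counts against 82), Pcmtd1 (0.087) and Ccdc170 (0.090). With 3 libraries many genes lie as close, and the likeness is a description only.

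As to the libraries, total counts ran from 95824218 to 98227791 in Flag-IP, against 74176962 in IgG-IP, and 28 genes took 97.0% to 97.6% of them, leaving the median tested gene at 24 to 26 counts. In such immunoprecipitates of bulk tissue, fewer cells of a type, less RNA per cell and less RNA recovered with the antibody cannot be told apart. All 10 white adipocyte markers had counts, among them Adipoq with 18 and 14 in Flag-IP against 3 in IgG-IP, and Lpl with 3108 and 1996 against 2666. Adipoq met the filter on low counts through the Flag-IP libraries alone. Of the 10 markers, Plin1 and Aqp7 rose, Cd36 fell and 7 did not pass, where 11.3% of all genes were called. With the trend on GC taken off Plin1 and Cd36 did not pass (edgeR adjusted p = 0.113 and 0.859), nor did Cd36 with the trend on span taken off (edgeR adjusted p = 0.0741) or in DESeq2 (0.299). DESeq2 called Aqp7 alone among the 10 and left 5 with no adjusted p. Summed normalized counts of that list were 5848 and 3986 in Flag-IP 1 and Flag-IP 2, against 3166 in IgG-IP. Without Aqp7 the sums were 3767 and 2371 in Flag-IP against 2981 in IgG-IP, which lay between the Flag-IP libraries. Without Aqp7 and Lpl they were 420.0 and 394.1 in Flag-IP against 470.0 in IgG-IP, lower in both Flag-IP libraries. Skeletal muscle markers summed to 356 and 304 against 281, and 2 of 4 tested were higher (Ckm and Tnnt3). Neither passed with scaling to total counts or with the trend on GC or span taken off, DESeq2 called 0 with no adjusted p for 3 of the 4, and Tnnt3 overlaps Gm14492, which had 52.3% as many Flag-IP counts. Ckm, with 4 IgG-IP counts, met the filter on low counts through the Flag-IP libraries alone, so its call is not separate support for a rise. Endothelial markers summed to 374 and 418 against 416, macrophage markers to 183 and 140 against 197, and preadipocyte and fibroblast markers to 290 and 249 against 209. Of these 3 lists, 0 of 13 tested genes passed in edgeR, with 3 at an unadjusted p under 0.05 and 0 called by DESeq2.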

How the data were processed

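The values are the authors' raw counts, deposited as whole numbers for each Ensembl gene and library without normalization. CASAVA 1.7 and Bowtie 0.12.2 appear in the submitters' processing notes, with mm8 as the build. How reads were assigned to genes, and whether by strand, is not given in the sources used here. Per the labels' protocols, beads were washed 6 times before the RNA was extracted. A deposited list of lipid genes holds none of these genes and was not used here. Positions, spans, GC and transcripts come from GENCODE M21 (GRCm38), matched by Ensembl identifier for 37607 of 39179 genes, and none are in mm8.

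Genes were kept by filterByExpr with a minimum count of 10. The 17587 genes left were tested with the quasi-likelihood method of edgeR 4.0.16 (R 4.3.3, TMM scaling), and p-values were adjusted over all of them by Benjamini-Hochberg, with 0.05 as the threshold. The Flag-IP pair gives the only residual degree of freedom, the spread is shared between genes (common dispersion 0.0359), and the lone IgG-IP library is assumed to vary like that pair. DESeq2 1.42.0 was an alternative. Normalized counts are counts rescaled to a common library size, the mean of the 3 TMM-adjusted totals. CPM uses the TMM-adjusted totals too, and the log2 CPM of the likeness adds a prior count of 2. A trend is a lowess line of log2 fold change on transcript GC or log span over genes averaging 20 counts or more, entered as an offset.

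A gene that a list held is not reported here and was left out of that list. The 4 genes, the lists and the tests were chosen with earlier results of these data known. In each list of the locus and its pathways every member past the threshold was named, then those with the highest mean count until 4 were named, and the locus genes and the 3 genes nearest to each tested locus gene were always named. Genes named outside this rule (Rbl2, Aktip, Mmp2, 4933436C20Rik, Ces1a to Ces1h, D230002A01Rik, Gm3235, Irx6, Alkbh5, Alkbh6, Lepr, Ucp1, and the cell type markers) were chosen after their values were seen.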

Additional observations from a re-analysis of the deposited data

How the results depend on the processing

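Fto and Rpgrip1l passed under none of the alternatives tested, and the lowest edgeR adjusted p, with scaling to total counts, was 0.0846 for Fto and 0.0651 for Rpgrip1l. The median shift of all genes under that scaling was -0.52 on the log2 scale, with Fto at -0.59 and Rpgrip1l at -0.90. The sign turned for Fto with the span trend taken off (0.23) and for Rpgrip1l with the GC trend taken off (0.15). In the other alternatives with a fit it did not turn. Without Flag-IP replicate 1 or 2, which leaves 1 library against 1 and no test, Fto was at 0.03 and -0.19 and Rpgrip1l at -0.29 and -0.49. The sign of Fto thus also turned without Flag-IP replicate 1. The adjusted p ran from 0.504 to 0.569 for Irx3 and from 0.698 to 0.729 for Irx5 over 3 other scalings; DESeq2 gave them no adjusted p, and the trends, the prior count and leaving out a library were not run for them. Counts of genes called cannot be had with 1 library against 1. Over all genes, 342 were higher and 3008 lower with scaling to total counts, 127 and 124 in DESeq2 (no adjusted p for 14661), 405 and 319 with the GC trend taken off, and 809 and 667 with the span trend taken off; the cause was not tested. Of the 10 related genes called, 10 still passed with RLE factors, 8 with upper-quartile scaling, 8 with no filter, 6 with the span trend taken off, 5 with total counts, 1 with the GC trend taken off (Tmem67) and 1 in DESeq2 (Cep164), which gave no adjusted p for 7; none changed sign. No paired analysis was possible because the Flag-IP and IgG-IP groups share only replicate number 1. Counts under about 10 per library limit what can be said of Irx3 and Irx5.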
